A study of Homo sapiens with 12 samples.

Results

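The 42 genes described here carry out mitosis: they build the spindle, tie chromosomes to it, check the attachment and divide the cell. They were taken as a named list, from what the genes are known to do but with earlier results of these data known. All 42 were found in the annotation of the arrays, among 19774 genes in all. Of the probe sets of a gene, the brightest on average over the 12 arrays was used. Of the 42, 41 lay above background on every array. PLK1 did so on 9 and lay below it on 3, all of MDST8. The background level, 5.429, is the highest signal of 23 nonspecific control probe sets. Values are log2 intensities of total RNA on Affymetrix U133 Plus arrays, so a difference of 1 is a doubling or halving of signal, and the level of a probe set is compared only with the same probe set on other arrays.

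3 established cell lines were used, HUTU-80, NCI-H716 and MDST8. The labels give them as colorectal cancer cells in which the miR-200 loci are methylated. Each line has a control array. The other arrays carry lentiviral miR-200c141, the cluster of miR-200c and miR-141, lentiviral miR-200ba429, the cluster of miR-200b, miR-200a and miR-429, or both. Sorting for GFP took place 48 hours after transduction, part of the sorted cells with miR-200ba429 was given the virus of the other cluster 24 hours later, and RNA was taken on day 7. There are 3 control arrays, 4 with miR-200c141, 3 with miR-200ba429 and 2 with both clusters, the last in MDST8 and NCI-H716 alone. HUTU-80 has 2 arrays with miR-200c141, titled 1:3 and 1:5, whose mean entered every test, which left 11 samples. The sources used here give neither the treatment of the control cells nor the promoter that drives the microRNAs. Nothing in the labels says that arrays came from separate cultures, so p-values measure the spread between these samples, which may be technical. The epithelial identity of the lines was partial: of 9 epithelial markers, 1 lay above background in the HUTU-80 control, 1 in that of MDST8 and 7 in that of NCI-H716. Of the 9, CDX1 lay below background on every array. Of 4 endothelial markers 0 lay above background on any array. Of 5 measured immune markers the only one was LYZ, in NCI-H716. Of 5 fibroblast markers, 1 to 3 lay above background on every array, among them DCN at 11.24 in the HUTU-80 control and COL1A1 at 11.31 in that of MDST8.

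Entry into mitosis is driven by the kinase CDK1 with cyclins A and B and by the kinases PLK1 and AURKA. At the kinetochore the spindle checkpoint, with BUB1, BUB1B, TTK and MAD2L1, holds the anaphase-promoting complex in check until every chromosome is attached. The complex then marks securin and cyclin B for destruction, and the cell divides. Transcripts of these genes accumulate from late S phase into mitosis, so in a bulk culture their level follows the share of dividing cells. Fewer dividing cells and less RNA per cell cannot be told apart in these arrays.

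By their 3p arms, the microRNAs that were introduced fall into 2 seed groups that each cluster contains. They are shown because the groups compared differ in which of them were supplied. Their 3p arms, from RefSeq on GRCh38.p14, are printed with the seed, bases 2 to 8, in capitals.
hsa-miR-200c-3p (chr12:6963742-6963764, plus strand): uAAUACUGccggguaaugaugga
hsa-miR-200b-3p (chr1:1167160-1167181, plus strand): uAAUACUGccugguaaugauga
hsa-miR-429 (chr1:1169055-1169076, plus strand): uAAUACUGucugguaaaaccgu
hsa-miR-141-3p (chr12:6964155-6964176, plus strand): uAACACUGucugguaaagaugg
hsa-miR-200a-3p (chr1:1167916-1167937, plus strand): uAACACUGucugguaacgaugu
The first 3 share the seed AAUACUG and the last 2 the seed AACACUG. miR-200c-3p and miR-141-3p belong to miR-200c141, on chromosome 12, and the rest to miR-200ba429, on chromosome 1.

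Promoters of many mitotic genes hold a CHR element, read as TTTGAA and bound by the DREAM and MuvB complexes, together with CCAAT boxes bound by NF-Y. RefSeq promoters, 250 bases before to 50 after the start, were at hand for 36 of the 42 genes. The other 6 are AURKA, FOXM1, TTK, TPX2, BIRC5 and UBE2C. TTTGAA, on either strand, was present in 27 of the 36 (75%), against 15.4% of all 27305 promoters in the table and 10% of the 6351 promoters of genes above background on every array. CCAAT, on either strand, was present in 28 of the 36 (77.8%), against 35.7% and 38.5%. For GCGGGAA, an E2F-type sequence, the count was 3 of 36 (8.3%), against 6.6% and 11.6%. TTTGAA or TTCGAA occurred together with CCAAT in 22 of 36 (61.1%), against 6.6% and 5.2%. In the 150 bases nearest the start the first share was 66.7%, against 6.9% and 4.0%. These matches describe the letters of the window and not a binding site. The 120 bases before the start are printed for the 4 members with the largest fitted change with both clusters against control, and for CCNB2, which has both elements and was called against single clusters too. TTTGAA or its complement TTCAAA, and CCAAT or its complement ATTGG, are in capitals.
BUB1B (chr15:40160949-40161068, plus strand): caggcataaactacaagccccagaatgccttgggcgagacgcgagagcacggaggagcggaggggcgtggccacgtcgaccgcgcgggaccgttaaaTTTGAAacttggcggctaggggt
PLK1 (chr16:23678769-23678888, plus strand): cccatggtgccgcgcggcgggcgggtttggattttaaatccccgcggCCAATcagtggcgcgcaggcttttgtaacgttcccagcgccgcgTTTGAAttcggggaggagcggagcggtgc
KIF11 (chr10:92593010-92593129, plus strand): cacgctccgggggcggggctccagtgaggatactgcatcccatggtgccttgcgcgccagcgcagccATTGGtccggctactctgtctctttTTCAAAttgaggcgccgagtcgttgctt
KIF2C (chr1:44739717-44739836, plus strand): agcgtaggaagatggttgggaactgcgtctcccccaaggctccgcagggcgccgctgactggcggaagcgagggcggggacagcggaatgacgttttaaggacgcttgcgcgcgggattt
CCNB2 (chr15:59105026-59105145, plus strand): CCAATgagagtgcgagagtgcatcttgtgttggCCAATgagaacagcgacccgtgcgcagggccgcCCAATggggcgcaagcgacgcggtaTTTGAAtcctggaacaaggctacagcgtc
TTTGAA or TTCAAA begins 23 bases before the start in BUB1B, 29 in PLK1, 28 in KIF11 and 29 in CCNB2. CCNB2 has 3 CCAAT boxes in the stretch, the first beginning 120, the next 87 and the last 54 bases before the start. KIF2C has none of the 4 words searched.

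On the arrays with both clusters the mitotic genes read lower than in the matching control, by a median of 0.57 log2 units in MDST8 and 0.29 in NCI-H716. In MDST8, 41 of the 42 lay below the control, where 49.3% of all genes did, and 27 by more than 0.5, against 11.8% of all genes and 12.5% of the genes above background on every array. NCI-H716 had 38 of 42 below the control, beside 51.8% of all genes, and 6 by more than 0.5, against 11.3% and 12.3% of genes, so the count past 0.5 there was near the background. Fits over all lines gave all 42 a negative change with both clusters against control, with a median of −0.52 beside 0.00 for all genes. Of these, 10 fell and 0 rose (limma, Benjamini-Hochberg adjusted over all genes). Among the 10 were the checkpoint protein BUB1B, the cyclins CCNB2 and CCNA2 and the spindle motor KIF11. Of all genes, 6.14% were called in that comparison and 3.81% fell. Among genes above background on every array the shares were 12.1% and 7.91%.

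With a single cluster the picture depended on the line. The array with miR-200ba429 lay below the control for 42 of 42 genes in HUTU-80 (median −0.42) and above it for 42 of 42 in MDST8 (median 0.37), while NCI-H716 had 26 of 42 below (median −0.03). Of all genes, 48.9% had a negative change on this array in HUTU-80, 49.1% a positive one in MDST8 and 52.6% a negative one in NCI-H716. In HUTU-80, 17 members were lower by more than 0.5, against 6.03% of all genes and 4.17% of those above background on every array. In MDST8, 7 were higher by more than 0.5 (SPC25, CDCA8, CENPA, AURKB, NUF2, TPX2 and MKI67), against 4.23% and 2.14%. With miR-200c141 the medians were nearer 0 than with miR-200ba429 in HUTU-80 and MDST8, and about the same in NCI-H716. They were −0.24 and −0.13 on the HUTU-80 arrays titled 1:3 and 1:5, −0.09 in MDST8 and −0.04 in NCI-H716. Members lower by more than 0.5 numbered 5 on the 1:3 array, against 5.81% of all genes, and 0 on each of the other 3 (1:5, MDST8, NCI-H716), against 4.39%, 5.39% and 6.55%.

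Limma called 0 members with miR-200c141 against control, with miR-200ba429 against control, between these clusters, and with any construct against control. At an unadjusted p under 0.05 the count was 0 members in each. In these comparisons 0% of all genes were called, with 1302, 1214, 705 and 1851 genes at an unadjusted p under 0.05. The opposite changes in HUTU-80 and MDST8 with miR-200ba429 rest on 1 array each and were not tested. A moderated F for a difference between lines in the change with any construct called 0 members, with 0 at an unadjusted p under 0.05, and 0.00506% of all genes.

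**Figure D1:**
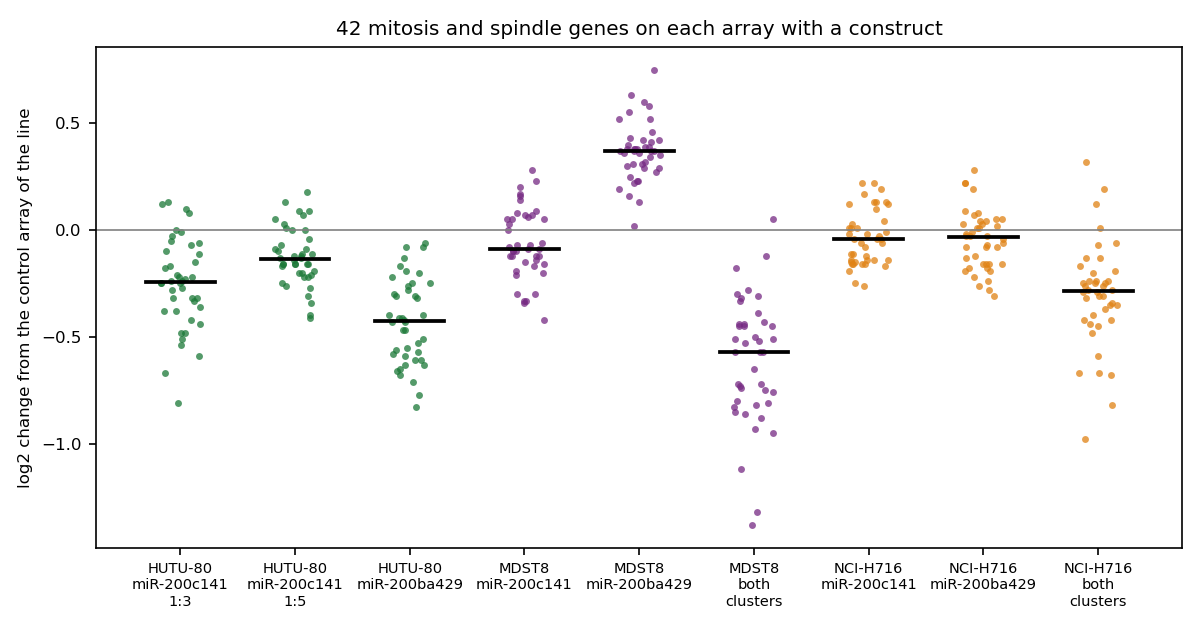
Log2 change of each of the 42 genes (points) from the control array of its line, on the 9 arrays with a construct. Black bars are medians: with miR-200ba429 all points lie below 0 in HUTU-80 (median −0.42) and above 0 in MDST8 (0.37), and with both clusters the medians are −0.57 and −0.29.

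**Figure D2:**
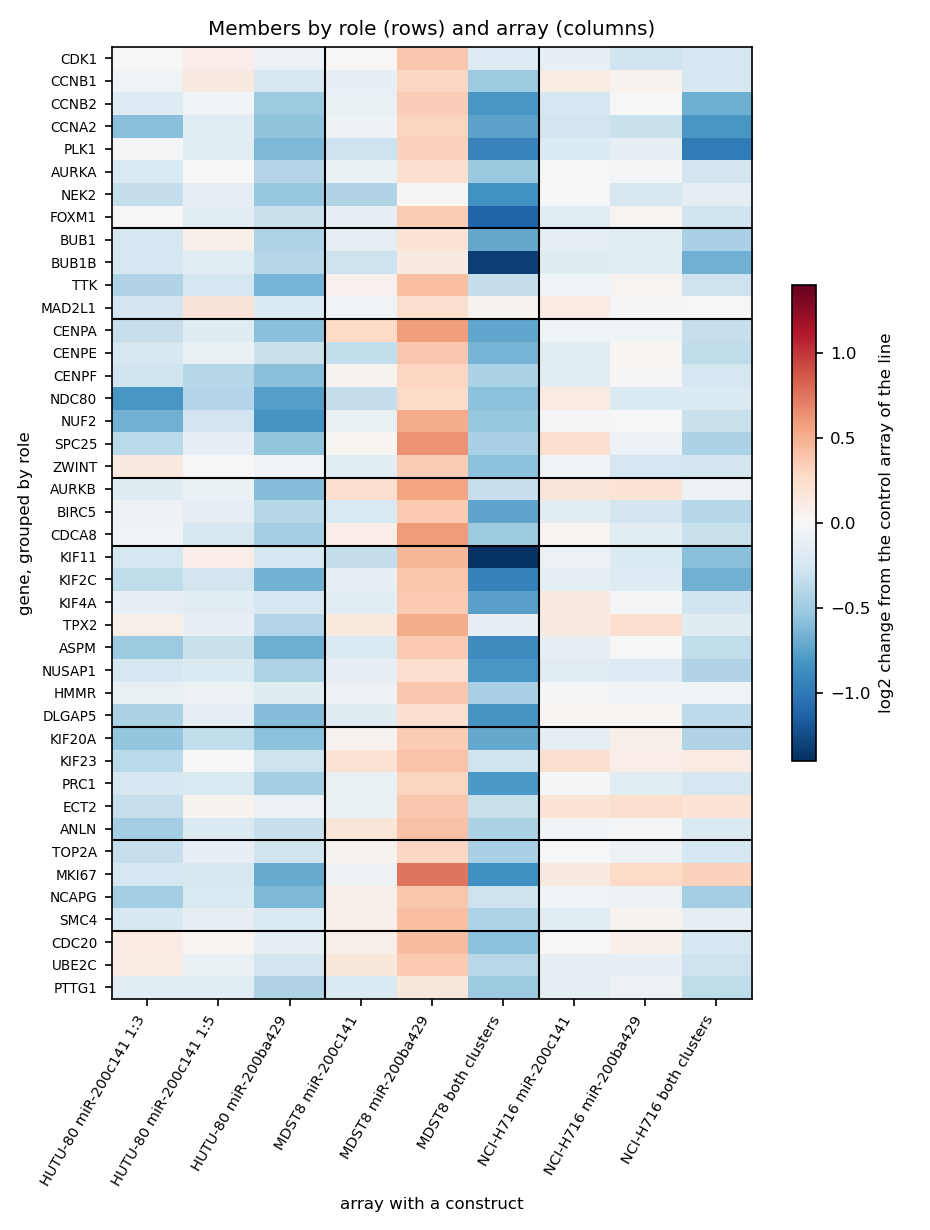
Log2 change from the control of the line for each member (rows, grouped by role and split by black lines) on each array with a construct (columns), blue for lower and red for higher. The MDST8 column with miR-200ba429 is red for all 42 genes, and the MDST8 column with both clusters is blue for 41.

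Of the 8 genes of mitotic entry, 3 fell with both clusters against control (PLK1, CCNA2 and CCNB2) and CCNB2 also against single clusters. The median of the 8 was −0.65 against control and −0.55 against single clusters.

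CCNB2 is a B-type cyclin that activates CDK1. Here and for later genes the pair of HUTU-80 values with miR-200c141 is given as 1:3, then 1:5, and NCI-H716 values follow the order control, miR-200c141, miR-200ba429, both clusters. CCNB2 read 10.54 in the HUTU-80 control, 10.36 and 10.50 with miR-200c141 and 10.03 with miR-200ba429. MDST8 gave CCNB2 levels of 9.78 in the control, 9.68 with miR-200c141, 10.12 with miR-200ba429 and 8.96 with both clusters. In NCI-H716, CCNB2 read 11.08, 10.83, 11.09 and 10.40 in that order. The array with both clusters was the lowest of its line in MDST8 and NCI-H716, and the miR-200ba429 array was the highest in MDST8 and the lowest in HUTU-80. The fitted change of CCNB2 with both clusters was −0.82 ± 0.17 against control (SE, limma adjusted p = 0.0220) and −0.72 ± 0.16 against single clusters (adjusted p = 0.0492). With the mean of all its probe sets CCNB2 was at −0.17 against control (limma adjusted p = 0.5608) and −0.19 against single clusters (0.5408). Both calls rest on the probe set used, the only one of CCNB2 above background. The others exceeded background on 0 arrays, with mean levels from 3.03 to 3.19, so their mean cannot check the calls. CCNA2, the A-type cyclin of S phase and early mitosis, had the following levels. CCNA2 read 10.36 in the HUTU-80 control, 9.77 and 10.20 with miR-200c141 and 9.80 with miR-200ba429. MDST8 gave CCNA2 levels of 8.75 in the control, 8.69 with miR-200c141, 9.06 with miR-200ba429 and 8.0 with both clusters. In NCI-H716, CCNA2 read 10.24, 9.99, 9.93 and 9.43 in that order. The lowest array of MDST8 and of NCI-H716 was that with both clusters, at −0.69 and −0.50 from the next lowest. CCNA2 had a fitted change of −0.87 ± 0.16 against control (SE, limma adjusted p = 0.0135) and of −0.66 ± 0.15 against single clusters (adjusted p = 0.0523).

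PLK1, the kinase that drives centrosome maturation, spindle assembly and exit from mitosis, was the member with the largest difference in NCI-H716. PLK1 read 7.21 in the HUTU-80 control, 7.18 and 7.05 with miR-200c141 and 6.59 with miR-200ba429. MDST8 gave PLK1 levels of 5.28 in the control, 4.98 with miR-200c141, 5.59 with miR-200ba429 and 4.34 with both clusters. In NCI-H716, PLK1 read 6.95, 6.76, 6.82 and 5.97 in that order. In MDST8 only the miR-200ba429 array exceeded background, so the MDST8 differences compare signals near or below it. The fitted change of PLK1 with both clusters was −1.02 ± 0.25 against control (SE, limma adjusted p = 0.0389) and −0.85 ± 0.23 against single clusters (adjusted p = 0.0942). CDK1, the kinase that starts mitosis, had the smallest difference of the genes of entry on the probe sets used. CDK1 read 11.67 in the HUTU-80 control, 11.65 and 11.76 with miR-200c141 and 11.59 with miR-200ba429. MDST8 gave CDK1 levels of 11.04 in the control, 11.04 with miR-200c141, 11.42 with miR-200ba429 and 10.86 with both clusters. In NCI-H716, CDK1 read 11.59, 11.48, 11.31 and 11.35 in that order. Its arrays with both clusters were at −0.18 from the control in MDST8 and −0.24 in NCI-H716. Other CDK1 probe sets above background on every array were lower there, at −0.28 and −0.42 in MDST8 and −0.37 and −0.64 in NCI-H716. CDK1 stood at −0.22 ± 0.13 (SE) against control and −0.21 ± 0.12 against single clusters, and passed neither test (limma adjusted p = 0.3696 and 0.4190).

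The other 4 genes of entry did not pass. FOXM1, a transcription factor that switches on late cell cycle genes, differed from control by −1.12 (MDST8) and −0.28 (NCI-H716) with both clusters, against −0.12 and 0.36 on the single-cluster arrays of MDST8. AURKA, the kinase of centrosomes and spindle poles, was at −0.52 and −0.26. NEK2, a kinase that separates centrosomes, was at −0.85 and −0.13, and CCNB1, the main partner of CDK1, at −0.51 and −0.25. Fitted changes against control were −0.75 ± 0.23 for FOXM1 (SE, limma adjusted p = 0.0823), −0.45 ± 0.14 for AURKA (0.0817), −0.54 ± 0.2 for NEK2 (0.1390) and −0.42 ± 0.14 for CCNB1 (0.0986).

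Of the 4 spindle checkpoint genes, BUB1B and BUB1 fell against control and BUB1B against single clusters, while MAD2L1 hardly differed on the probe set used. BUB1B, also called BUBR1, inhibits the anaphase-promoting complex as part of the checkpoint complex. BUB1B read 10.32 in the HUTU-80 control, 10.06 and 10.16 with miR-200c141 and 9.92 with miR-200ba429. MDST8 gave BUB1B levels of 9.66 in the control, 9.36 with miR-200c141, 9.79 with miR-200ba429 and 8.34 with both clusters. In NCI-H716, BUB1B read 9.81, 9.64, 9.66 and 9.14 in that order. Both arrays with both clusters lay below every other array of the line, at −1.01 from the next lowest in MDST8 and −0.50 in NCI-H716. The fitted change of BUB1B with both clusters was −1.03 ± 0.18 against control (SE, limma adjusted p = 0.0096) and −0.85 ± 0.16 against single clusters (adjusted p = 0.0298). Against control the fitted value corresponds to 48.8% of the control signal. BUB1, the kinase that recruits checkpoint proteins to kinetochores, ranged less. BUB1 read 9.95 in the HUTU-80 control, 9.71 and 10.02 with miR-200c141 and 9.52 with miR-200ba429. MDST8 gave BUB1 levels of 9.21 in the control, 9.07 with miR-200c141, 9.40 with miR-200ba429 and 8.49 with both clusters. In NCI-H716, BUB1 read 9.08, 8.94, 8.92 and 8.64 in that order. Again both arrays with both clusters were the lowest of their line. BUB1 had a fitted change of −0.63 ± 0.16 against control (SE, limma adjusted p = 0.0440) and of −0.50 ± 0.14 against single clusters (adjusted p = 0.1166).

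MAD2L1 encodes MAD2, which captures CDC20 at unattached kinetochores. MAD2L1 read 10.54 in the HUTU-80 control, 10.27 and 10.72 with miR-200c141 and 10.35 with miR-200ba429. MDST8 gave MAD2L1 levels of 9.52 in the control, 9.46 with miR-200c141, 9.77 with miR-200ba429 and 9.57 with both clusters. In NCI-H716, MAD2L1 read 10.86, 10.98, 10.83 and 10.86 in that order. With both clusters it was at 0.05 from the MDST8 control and 0.01 from that of NCI-H716, and its sign changed with the scaling of the arrays (0.02 against control after centring). MAD2L1 stood at −0.01 ± 0.11 (SE) against control and −0.02 ± 0.1 against single clusters, and passed neither test (limma adjusted p = 0.9683 and 0.9510). TTK, the kinase that starts checkpoint signalling, differed from control by −0.33 (MDST8) and −0.29 (NCI-H716) with both clusters and by −0.65 in HUTU-80 with miR-200ba429, with a fitted −0.45 ± 0.2 against control (SE, limma adjusted p = 0.2107).

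**Figure D3:**
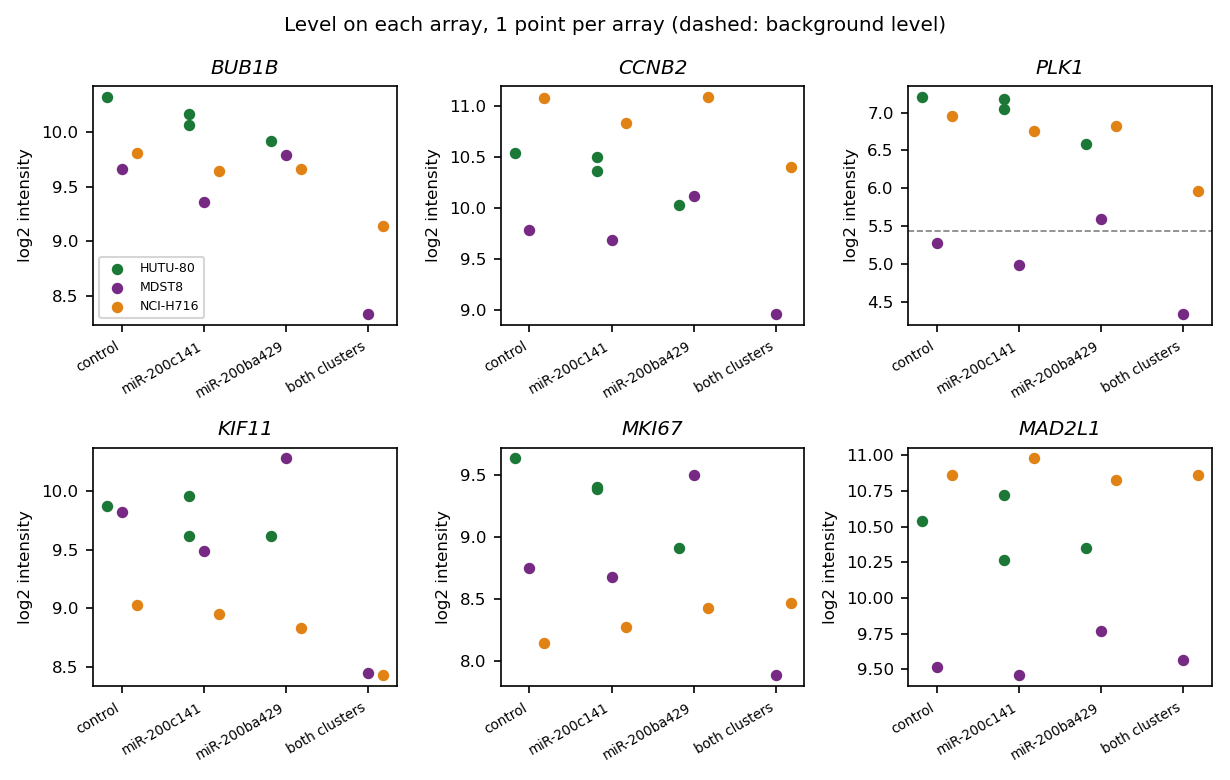
Log2 intensity on each array for BUB1B, CCNB2, PLK1, KIF11, MKI67 and MAD2L1, by construct (horizontal) and line (colour), 1 point per array, with the background level of 5.429 dashed where it falls in range. For BUB1B the points with both clusters, 8.34 in MDST8 and 9.14 in NCI-H716, are the lowest of their lines, while for MAD2L1 all MDST8 points lie between 9.46 and 9.77.

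The spindle motors and microtubule proteins had the largest median of the roles, −0.69 against control and −0.57 against single clusters, and 4 of 8 fell against control. KIF11, the motor that pushes spindle poles apart, had the largest difference of all members in MDST8. KIF11 read 9.87 in the HUTU-80 control, 9.62 and 9.96 with miR-200c141 and 9.62 with miR-200ba429. MDST8 gave KIF11 levels of 9.82 in the control, 9.49 with miR-200c141, 10.28 with miR-200ba429 and 8.45 with both clusters. In NCI-H716, KIF11 read 9.03, 8.95, 8.83 and 8.43 in that order. In MDST8 the array with both clusters was at −1.83 from that with miR-200ba429 and at −1.38 from the control. The fitted change of KIF11 with both clusters was −1.01 ± 0.24 against control (SE, limma adjusted p = 0.0360) and −0.93 ± 0.22 against single clusters (adjusted p = 0.0618). KIF2C, a kinesin that takes apart microtubule ends at the centromere, moved likewise. KIF2C read 10.64 in the HUTU-80 control, 10.28 and 10.37 with miR-200c141 and 9.98 with miR-200ba429. MDST8 gave KIF2C levels of 9.11 in the control, 8.99 with miR-200c141, 9.50 with miR-200ba429 and 8.16 with both clusters. In NCI-H716, KIF2C read 9.79, 9.65, 9.61 and 9.12 in that order. Its miR-200ba429 array in HUTU-80 was at −0.66 from the control and that in MDST8 at 0.39. KIF2C had a fitted change of −0.91 ± 0.2 against control (SE, limma adjusted p = 0.0258) and of −0.75 ± 0.18 against single clusters (adjusted p = 0.0702).

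DLGAP5, which stabilises spindle microtubules near chromosomes, was lowest with both clusters in both lines. DLGAP5 read 10.33 in the HUTU-80 control, 9.89 and 10.19 with miR-200c141 and 9.72 with miR-200ba429. MDST8 gave DLGAP5 levels of 8.74 in the control, 8.57 with miR-200c141, 8.97 with miR-200ba429 and 7.91 with both clusters. In NCI-H716, DLGAP5 read 9.28, 9.30, 9.30 and 8.91 in that order. The control lay above 3 of 3 construct arrays in HUTU-80. The fitted change of DLGAP5 with both clusters was −0.71 ± 0.19 against control (SE, limma adjusted p = 0.0492) and −0.58 ± 0.17 against single clusters (adjusted p = 0.1188). NUSAP1, a protein that bundles spindle microtubules, was also lowest with both clusters. NUSAP1 read 10.82 in the HUTU-80 control, 10.58 and 10.63 with miR-200c141 and 10.39 with miR-200ba429. MDST8 gave NUSAP1 levels of 10.13 in the control, 10.01 with miR-200c141, 10.36 with miR-200ba429 and 9.32 with both clusters. In NCI-H716, NUSAP1 read 10.72, 10.56, 10.54 and 10.30 in that order. Single-cluster arrays of NCI-H716 were at −0.16 and −0.18 from the control, and that with both clusters at −0.42. NUSAP1 had a fitted change of −0.68 ± 0.16 against control (SE, limma adjusted p = 0.0338) and of −0.53 ± 0.14 against single clusters (adjusted p = 0.1000).

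HMMR, a spindle pole protein, had the smallest difference of the role against single clusters. HMMR read 10.17 in the HUTU-80 control, 10.07 and 10.10 with miR-200c141 and 10 with miR-200ba429. MDST8 gave HMMR levels of 9.03 in the control, 8.95 with miR-200c141, 9.41 with miR-200ba429 and 8.58 with both clusters. In NCI-H716, HMMR read 9.25, 9.23, 9.21 and 9.19 in that order. NCI-H716 arrays lay between −0.06 and −0.02 from the control. HMMR stood at −0.30 ± 0.16 (SE) against control and −0.29 ± 0.14 against single clusters, and passed neither test (limma adjusted p = 0.3163 and 0.3471). The remaining ones were ASPM, a spindle pole protein (−0.73 ± 0.21 against control, SE, limma adjusted p = 0.0709), KIF4A, a chromosome-bound kinesin (−0.58 ± 0.18, 0.0869), and TPX2, an activator of AURKA (−0.25 ± 0.17, 0.4451), none of which passed.

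Of the 7 centromere and kinetochore genes 0 passed the limma test in either comparison with both clusters, although 7 had an unadjusted p under 0.05 against control and 5 against single clusters, with a smallest adjusted p of 0.1106 and 0.1588. Their medians were −0.55 and −0.43. CENPA, the histone H3 variant that marks centromeres, had the largest difference against single clusters. CENPA read 10.18 in the HUTU-80 control, 9.85 and 10.01 with miR-200c141 and 9.60 with miR-200ba429. MDST8 gave CENPA levels of 8.90 in the control, 9.18 with miR-200c141, 9.48 with miR-200ba429 and 8.17 with both clusters. In NCI-H716, CENPA read 9.51, 9.45, 9.45 and 9.19 in that order. Its MDST8 arrays with a single cluster were both above the control and that with both clusters at −0.73. CENPA stood at −0.66 ± 0.23 (SE) against control and −0.64 ± 0.21 against single clusters, and passed neither test (limma adjusted p = 0.1218 and 0.1588). NDC80, which holds microtubules at the kinetochore, had the smallest. NDC80 read 9.83 in the HUTU-80 control, 9.02 and 9.42 with miR-200c141 and 9.07 with miR-200ba429. MDST8 gave NDC80 levels of 8.57 in the control, 8.24 with miR-200c141, 8.84 with miR-200ba429 and 8.0 with both clusters. In NCI-H716, NDC80 read 8.01, 8.13, 7.82 and 7.83 in that order. In HUTU-80 all 3 construct arrays were lower than the control, down to −0.81, the largest difference of any member on the array titled 1:3. NDC80 stood at −0.52 ± 0.23 (SE) against control and −0.27 ± 0.2 against single clusters, and passed neither test (limma adjusted p = 0.2066 and 0.5653).

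The partners of NDC80 in its complex, NUF2 and SPC25, were at −0.53 and −0.45 in MDST8 with both clusters and at −0.31 and −0.44 in NCI-H716. With miR-200ba429 they were at −0.83 and −0.55 in HUTU-80 and at 0.52 and 0.63 in MDST8. CENPE, a kinetochore motor, CENPF, a large kinetochore protein, and ZWINT, which recruits checkpoint proteins, had fitted changes against control of −0.55 ± 0.18, −0.45 ± 0.17 and −0.41 ± 0.16 (SE, limma adjusted p = 0.1106, 0.1390 and 0.1597).

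The chromosomal passenger complex corrects wrong attachments and guides cytokinesis. Of its 3 members here 0 passed the limma test in either comparison, with 2 at an unadjusted p under 0.05 in each. CDCA8, known as borealin, had the largest difference against single clusters. CDCA8 read 8.99 in the HUTU-80 control, 8.94 and 8.77 with miR-200c141 and 8.52 with miR-200ba429. MDST8 gave CDCA8 levels of 8.11 in the control, 8.2 with miR-200c141, 8.71 with miR-200ba429 and 7.61 with both clusters. In NCI-H716, CDCA8 read 9.25, 9.30, 9.09 and 8.94 in that order. Both MDST8 single-cluster arrays were above the control. CDCA8 stood at −0.51 ± 0.21 (SE) against control and −0.50 ± 0.19 against single clusters, and passed neither test (limma adjusted p = 0.1935 and 0.2276). AURKB, the kinase of the complex, had the smallest. AURKB read 8.67 in the HUTU-80 control, 8.49 and 8.58 with miR-200c141 and 8.06 with miR-200ba429. MDST8 gave AURKB levels of 7.63 in the control, 7.86 with miR-200c141, 8.19 with miR-200ba429 and 7.31 with both clusters. In NCI-H716, AURKB read 8.60, 8.77, 8.79 and 8.53 in that order. In MDST8 and NCI-H716 all 4 single-cluster arrays were above the control. AURKB stood at −0.34 ± 0.22 (SE) against control and −0.41 ± 0.2 against single clusters, and passed neither test (limma adjusted p = 0.4150 and 0.3426). With the mean of its probe sets AURKB stood at 0.11 against control. BIRC5, known as survivin, was at −0.61 ± 0.2 (SE, limma adjusted p = 0.0999).

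Among the 5 genes of cytokinesis 0 passed the limma test, with 3 at an unadjusted p under 0.05 in each comparison. KIF20A, a kinesin of the central spindle, came nearest. KIF20A read 10.52 in the HUTU-80 control, 9.98 and 10.18 with miR-200c141 and 9.95 with miR-200ba429. MDST8 gave KIF20A levels of 8.88 in the control, 8.93 with miR-200c141, 9.24 with miR-200ba429 and 8.15 with both clusters. In NCI-H716, KIF20A read 8.49, 8.35, 8.56 and 8.06 in that order. The array with both clusters was the lowest of its line in MDST8 and NCI-H716, and in HUTU-80 the control was the highest. KIF20A stood at −0.70 ± 0.19 (SE) against control and −0.59 ± 0.17 against single clusters, and passed neither test (limma adjusted p = 0.0504 and 0.1112). ECT2, the exchange factor that activates RhoA at the division site, had the smallest difference. ECT2 read 10.32 in the HUTU-80 control, 9.99 and 10.37 with miR-200c141 and 10.23 with miR-200ba429. MDST8 gave ECT2 levels of 9.28 in the control, 9.19 with miR-200c141, 9.66 with miR-200ba429 and 8.97 with both clusters. In NCI-H716, ECT2 read 10.02, 10.21, 10.24 and 10.21 in that order. With both clusters it was at −0.31 from the MDST8 control and 0.19 from that of NCI-H716. ECT2 stood at −0.13 ± 0.15 (SE) against control and −0.21 ± 0.13 against single clusters, and passed neither test (limma adjusted p = 0.6798 and 0.4826). KIF23, a motor of the central spindle, likewise differed in sign (−0.28 and 0.12). PRC1, which bundles central spindle microtubules, was at −0.80 and −0.24, and ANLN, a scaffold of the contractile ring, at −0.44 and −0.20.

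Of the 4 genes of chromosome structure 0 passed the limma test, with 3 at an unadjusted p under 0.05 in each comparison. MKI67 encodes Ki-67, the coat protein of mitotic chromosomes used as a marker of cycling cells. MKI67 read 9.63 in the HUTU-80 control, 9.38 and 9.40 with miR-200c141 and 8.91 with miR-200ba429. MDST8 gave MKI67 levels of 8.75 in the control, 8.68 with miR-200c141, 9.50 with miR-200ba429 and 7.89 with both clusters. In NCI-H716, MKI67 read 8.15, 8.28, 8.43 and 8.47 in that order. On the probe set used the lines went opposite ways with both clusters, −0.86 in MDST8 and 0.32 in NCI-H716. The other MKI67 probe sets, above background on every array, gave −0.42, −0.57 and −0.18 in MDST8 and 0.41, −0.12 and 0.02 in NCI-H716. Against the mean of single clusters in NCI-H716 they gave −0.22, −0.05 and −0.14, beside 0.12 for the one used. MKI67 stood at −0.44 ± 0.34 (SE) against control and −0.46 ± 0.31 against single clusters, and passed neither test (limma adjusted p = 0.5090 and 0.5077). SMC4, a condensin subunit, had the smallest difference against single clusters. SMC4 read 11.28 in the HUTU-80 control, 11.06 and 11.17 with miR-200c141 and 11.08 with miR-200ba429. MDST8 gave SMC4 levels of 11.08 in the control, 11.15 with miR-200c141, 11.50 with miR-200ba429 and 10.64 with both clusters. In NCI-H716, SMC4 read 11.02, 10.87, 11.07 and 10.88 in that order. Its MDST8 array with both clusters was the lowest of the line, while in NCI-H716 that with miR-200c141 was lowest. SMC4 stood at −0.34 ± 0.14 (SE) against control and −0.35 ± 0.13 against single clusters, and passed neither test (limma adjusted p = 0.1823 and 0.2043). TOP2A, which disentangles sister DNA, was at −0.42 ± 0.12 against control and NCAPG, another condensin subunit, at −0.52 ± 0.17 (SE, limma adjusted p = 0.0747 and 0.1058).

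The last role covers the anaphase switch. PTTG1, the securin that holds separase inactive, fell against control with the smallest change of the 10. PTTG1 read 11.60 in the HUTU-80 control, 11.45 and 11.44 with miR-200c141 and 11.18 with miR-200ba429. MDST8 gave PTTG1 levels of 11.72 in the control, 11.52 with miR-200c141, 11.89 with miR-200ba429 and 11.21 with both clusters. In NCI-H716, PTTG1 read 11.22, 11.07, 11.14 and 10.87 in that order. Arrays with both clusters were the lowest of MDST8 and of NCI-H716, at −0.31 and −0.21 from the next lowest. The fitted change of PTTG1 with both clusters was −0.48 ± 0.13 against control (SE, limma adjusted p = 0.0474) and −0.34 ± 0.11 against single clusters (adjusted p = 0.1680). CDC20, the activator of the anaphase-promoting complex, had the largest difference of the role against single clusters. CDC20 read 10.64 in the HUTU-80 control, 10.77 and 10.67 with miR-200c141 and 10.51 with miR-200ba429. MDST8 gave CDC20 levels of 9.46 in the control, 9.55 with miR-200c141, 9.89 with miR-200ba429 and 8.89 with both clusters. In NCI-H716, CDC20 read 10.13, 10.13, 10.20 and 9.87 in that order. Both arrays with both clusters were below the control and all 4 single-cluster arrays of these lines above it. CDC20 stood at −0.45 ± 0.15 (SE) against control and −0.54 ± 0.13 against single clusters, and passed neither test (limma adjusted p = 0.1031 and 0.0735). UBE2C, the ubiquitin-conjugating enzyme of the complex, was at −0.38 ± 0.13 against control (SE, limma adjusted p = 0.1249).

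**Figure D4:**
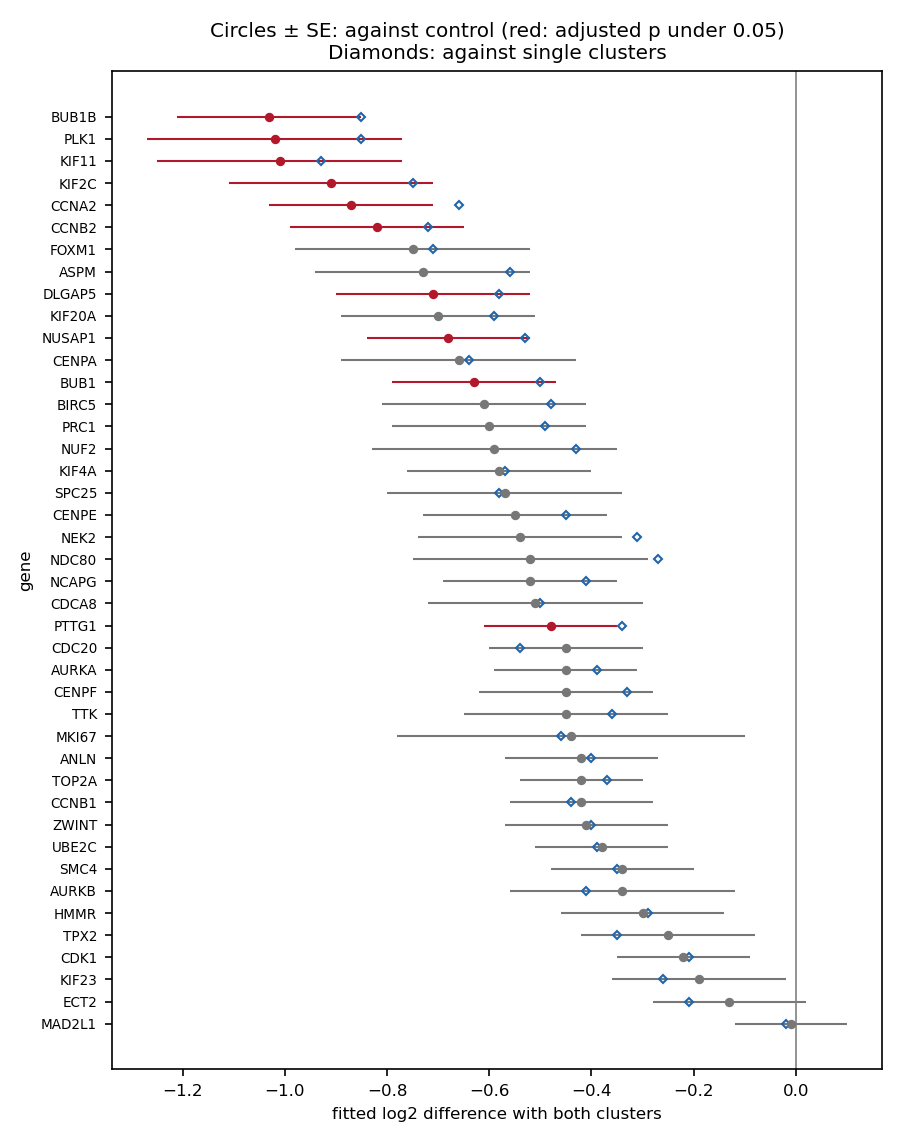
Fitted log2 difference with both clusters for each member (rows): circles with SE bars against control, red where the limma adjusted p was under 0.05, and blue diamonds against the mean of the single-cluster groups. All 42 circles lie below 0, from −1.03 for BUB1B to −0.01 for MAD2L1, and 10 are red.

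The comparison of both clusters with single clusters sets cells given a second virus against cells given 1. Only the cells with both clusters received a second virus, and no array has a second control virus, so a second cluster and a second transduction cannot be told apart. The same holds for both clusters against control. In this fit all 42 members had a negative difference (median −0.45, beside 0.00 for all genes) and 2, BUB1B and CCNB2, fell. The background share was 1.66% of all genes, 1.39% lower, and 3.61% among genes above background on every array, 3.19% lower, so 2 of 42 is near it. In MDST8 the array with both clusters was below the mean of the single-cluster arrays for 42 of 42 members (median −0.73), beside 48.9% of all genes, 37 of them by more than 0.5, against 8.9% of all genes and 10.8% of those above background. In NCI-H716 it was below for 41 of 42 (median −0.25), beside 51.8% of all genes, 6 of them by more than 0.5 (BUB1B, CCNA2, CCNB2, KIF2C, PLK1 and SPC25), against 5.24% and 5.37%. The mean in MDST8 includes the miR-200ba429 array, on which all members were higher than in the control. Against that array the median was −0.96 and against the miR-200c141 array −0.53. In NCI-H716 these were −0.26 and −0.25.

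Differences against single clusters were larger in MDST8 than in NCI-H716 for all members but MAD2L1. Across the 42 genes the values of the lines, which share no array, had a Pearson r of 0.41 and a Spearman rho of 0.44. The genes are not independent replicates. PLK1 stood out in NCI-H716 (−0.82) and KIF11 in MDST8 (−1.44, against −0.46).

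**Figure D5:**
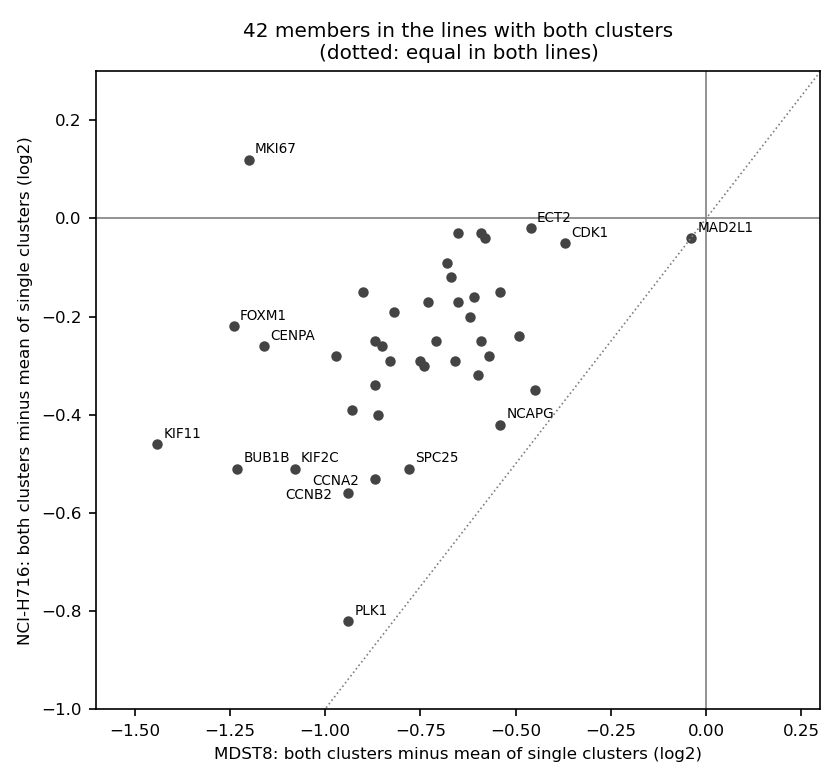
Each point is a member: its log2 level with both clusters minus the mean of the arrays with 1 cluster, in MDST8 (horizontal) and NCI-H716 (vertical). The dotted line marks equal values. Points lie below 0 on both axes except MKI67, at −1.20 and 0.12 on the probe set used.

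The number called depended on single arrays. Without the MDST8 array with both clusters, limma called 0 of the 42 against control, although it called 477 genes in all, and the fitted median was −0.29. Without that of NCI-H716 it called 21 (median −0.72). A fit without a control array called 2 (HUTU-80), 4 (MDST8) or 1 (NCI-H716), one without a single-cluster array called 19 (MDST8 with miR-200ba429), 5 (MDST8 with miR-200c141), 4 (NCI-H716 with miR-200c141) or 5 (NCI-H716 with miR-200ba429), one without a whole line called 2 (HUTU-80), 5 (MDST8) or 4 (NCI-H716), and one of only the groups compared called 0 of 42 and 7 of all genes. Against single clusters the count was 0 without the MDST8 array with both clusters and 13 without that of NCI-H716. The fitted values draw on all 3 lines through the line term and so differ from the mean of the 2 array differences. A fitted fall can exceed both of them, as for CCNA2 (−0.87 against control, beside −0.75 in MDST8 and −0.82 in NCI-H716). With only the groups compared, the median of the members was −0.42 against control, beside −0.52 in the main fit. Against single clusters it was −0.49, beside −0.45.

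The difference between the 3′ and 5′ ACTB control probe sets, which rises as RNA degrades, was highest on the arrays with both clusters, 2.02 in MDST8, where the rest lay between 1.5 and 1.54, and 2.63 in NCI-H716, where the rest lay between 2.33 and 2.40. In HUTU-80 the array with miR-200ba429, where all members were lower, had the lowest ACTB value of the line, 2.10, and the highest for GAPDH, 0.3797. The GAPDH difference was also the highest of the line with both clusters, 0.3831 in MDST8, where the rest lay between 0.2769 and 0.3244, and 0.3515 in NCI-H716, where the rest lay between 0.2714 and 0.325. The MDST8 array with miR-200ba429, where all were higher, had an ACTB value of 1.51. With the ACTB value as a covariate limma called 0 of 42 members and 0 of all genes in either comparison with both clusters, and the median of the members was −0.44 against control and −0.39 against single clusters. In MDST8 and NCI-H716 the ACTB value was set apart mainly on the arrays with both clusters, so the covariate and the group overlap. This fit cannot separate RNA quality from the presence of both clusters, and the part of RNA quality in the result was not tested. Epithelial markers also moved with the constructs. Their summed log2 level over 9 genes was 37.6 in the HUTU-80 control and 47.3 to 50.2 with a construct. For MDST8 it was 38.2 in the control, 40.7 and 40.0 with miR-200c141 and miR-200ba429, and 40.5 with both clusters. There KRT18 went from 9.89 to 11.79 and KRT8 from 4.61 to 5.58 with both clusters, and the other 7 markers lay below background. For NCI-H716 the sums were 64.6, 80.7, 75.1 and 81.9 in the same order. Fibroblast markers summed over 5 genes ranged from 27.2 to 30 in HUTU-80, 24.6 to 26.6 in MDST8 and 20.4 to 22.6 in NCI-H716, where PDGFRA went from 7.18 to 4.33 and COL1A1 from 3.19 to 7.57 with both clusters. Immune markers summed over 5 genes ranged from 16.2 to 17.3, 15.3 to 17.2 and 21.8 to 24.0 in these lines. The part of these markers in the result was not tested.

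Most other probe sets of the same genes had the sign of the list. Of 39 further probe sets, of 23 members, 21 lay above background on every array. With both clusters against control these 21 were negative in 21 cases in MDST8 and 19 in NCI-H716. With miR-200ba429 they were negative in 21 cases in HUTU-80 and positive in 20 in MDST8, where the exception was a probe set of BIRC5, at −0.06 beside 0.37 for the one used. The other probe set of MAD2L1 was at −0.04 with both clusters in MDST8 beside 0.05 for the one used. In NCI-H716 it was at −0.36 beside 0.01. Against the mean of single clusters it was at −0.22 (MDST8) and −0.18 (NCI-H716), beside −0.04 in each line for the one used. The other probe set of AURKB, above background on 9 arrays, gave 0.54 (MDST8) and 0.97 (NCI-H716) with both clusters, opposite in sign to the one used, at −0.32 and −0.07.

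Beyond the 42, the other genes of the cycle were counted in the comparison of both clusters with control. Of 67 other mitotic genes 8 fell and 0 rose (median −0.40), which is 11.9% of the list. That is near the 12.1% called in either direction among genes above background on every array, where 7.91% fell. Of all genes, 6.14% were called and 3.81% fell. The 8 included KIF14, a kinesin of cytokinesis (−1.31 ± 0.27, SE, limma adjusted p = 0.0201), CDKN3, a phosphatase that acts on CDKs (−1.08 ± 0.16, 0.0051), and CDC25B, a phosphatase that activates CDK1 (−0.89 ± 0.2, 0.0278). Of 42 measured genes of G1, S phase and replication 8 fell and 0 rose (median −0.51), among them the kinase CDK2 (−1.14 ± 0.18) and the helicase subunits MCM2 (−1.12 ± 0.21) and MCM5 (−0.95 ± 0.19). The share called was 19.0%, beside 23.8% for the mitosis and spindle genes. On the MDST8 array with miR-200ba429 the replication list lay above the control for 39 of 42 genes (median 0.29).

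The subunits of the anaphase-promoting complex and its regulators stayed nearer 0, with a median of −0.03 over 17 genes. CDC27, a core subunit, fell (−0.88 ± 0.11, SE, limma adjusted p = 0.0024), as did UBE2S, which extends ubiquitin chains (−0.59 ± 0.12, 0.0208), while CDC26, a small subunit, rose (0.47 ± 0.09, 0.0183), in all 17.6% of the list. CDC27 also fell against single clusters (−0.86 ± 0.10, adjusted p = 0.0031). Among 23 transcription regulators of the cycle 3 fell and 0 rose (median −0.15), a share of 13%. This is likewise near the 12.1% called in either direction among genes above background, where 7.91% fell. The 3 were RBL1, the p107 pocket protein (−1.52 ± 0.24, 0.0072), E2F3 (−0.70 ± 0.17, 0.0332) and NFYB, a subunit of the CCAAT-binding factor (−0.58 ± 0.14, 0.0363). With both clusters RBL1 read 5.15, below background, beside 6.79 in the control of MDST8, and 5.49 beside 6.85 in NCI-H716.

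Of 9 measured CDK inhibitors and mitotic brakes 0 passed the limma test, with 3 at an unadjusted p under 0.05. CDKN1A, the p21 inhibitor, stood at 1.47 ± 0.4 (SE, limma adjusted p = 0.0578). With both clusters it went from 9.21 to 9.63 in MDST8, and in NCI-H716 went from 3.74, below background, to 6.44. Single-cluster arrays of NCI-H716 were already above the control, at 5.63 with miR-200c141 and 4.83, still below background, with miR-200ba429. In MDST8 CDKN1A read 9.41 and 9.16 on these arrays. CDKN2B, the p15 inhibitor, stood at 0.86 ± 0.42 (0.2625). In MDST8 it was at 1.36 from the control with miR-200c141, −0.11 with miR-200ba429 and 1.55 with both clusters. The NCI-H716 values were 0.07, 0.17 and 0.09 in that order. Of 15 general genes, listed as a reference, 4 fell and 0 rose (median −0.10), namely TBP (−0.66 ± 0.17), SDHA (−0.59 ± 0.11), TFRC (−0.34 ± 0.06) and PGK1. The share called there, 26.7%, is close to that of the mitosis and spindle genes, so the share called alone does not set the members apart, and the medians differ more (−0.10 and −0.52).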

How the data were processed

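Each array has 1 deposited log2 intensity for every probe set. The authors used RMA, per the submitters' processing notes, a method that subtracts background, gives all arrays a common distribution and combines the probes of a set. No software version is stated in the sources used here. Values run from 2.048 to 13.771 and were used as deposited.

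Of 54715 probe sets, 40914 name 1 gene, 864 several and 12835 none, besides 102 controls. Probe sets of several genes or none were left out. Symbols were checked by Entrez number in a RefSeq table (40858 matched, 0 changed). Each of 19774 genes was represented by its brightest probe set.

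Limma 3.58.1 in R 4.3.3 fitted group and cell line as fixed terms over 11 samples (5 residual degrees of freedom for 4 groups, 7 for any construct, 5 for the difference between lines), with empirical Bayes moderation and a variance trend. Tests are two-sided, adjusted by Benjamini-Hochberg over all genes at 0.05, and were tested on simulated data. The line term pairs samples of the same line, and dropping it (no replicate block) left 0 members called. Precision is limited by the number of arrays. Each line has 1 control array, whose error enters every change of that line.

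The members and gene lists were chosen with earlier results of these data known. Values on every array are given for members that passed a test and for the members with the largest and smallest difference against single clusters in each role. Of the other lists, up to 3 called genes, or the 2 largest if none was called, are named. PGK1, CENPE and other members named with fewer values complete the counts. Alternatives left out each line and each array, entered both HUTU-80 arrays, averaged probe sets, kept genes above background on at least 3 arrays, centred arrays, dropped the trend, fitted only the groups compared, or added the ACTB difference as a covariate. Promoter and microRNA sequences are from RefSeq, GRCh38.p14.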

Additional observations from a re-analysis of the deposited data

Results flagged for a closer look

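FOXM1 on the MDST8 array with both clusters, at −1.12 from its control, lay apart from the other 7 samples with a construct, of which the next lowest was −0.31. The gap was 0.55 of the whole range. It was the only 1 of 43 results (42 members and their median) to stand apart in this way, where chance gives about 1 in 20.

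The change with miR-200ba429 had opposite signs in HUTU-80 (lower) and MDST8 (higher), which was not tested, since each line has 1 such array. MDST8 minus HUTU-80 came to 0.79 for the median of the members. Among the members called with both clusters it was 1.05 for KIF2C, 0.94 for PLK1, 0.87 for CCNA2, 0.86 for CCNB2, 0.84 for DLGAP5, 0.71 for KIF11, 0.67 for NUSAP1, 0.62 for BUB1, 0.59 for PTTG1 and 0.52 for BUB1B.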

How the results depend on the processing

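With both clusters the fitted median of the members stayed negative under all 23 alternatives, from −0.72 to −0.29 against control and from −0.64 to −0.20 against single clusters, with 38 to 42 of 42 members negative. The counts of called members, 10 and 2, were less stable. The mean of all probe sets takes in probe sets above background on 0 arrays, such as those of CCNB2 and BUB1. Against control the count was 3 with the mean of all probe sets, 3 without a variance trend, 0 with no replicate block for the line, 0 with only the groups compared and 0 with the ACTB covariate, and with 1 line or array left out it ran from 0 to 21. Against single clusters it was 6 with the HUTU-80 arrays entered separately, 0 with the mean of all probe sets, 1 with centred arrays, 0 without a variance trend, 0 with no replicate block, 1 with only the groups compared and 0 with the ACTB covariate, and from 0 to 13 with 1 line or array left out. Where 1 sample with both clusters was left, it was assumed to vary like the other groups. Causes were not tested. BUB1B kept its call against control under 19 of 23 alternatives and BUB1 under 5. The other 5 comparisons called 0 members under every alternative that could be fitted, with smallest adjusted p from 0.2304 to 0.9012; the difference between lines has no fit without the line term, and neither it nor any construct has one with fewer groups.

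Some members with small changes reversed. Against control MAD2L1 was at 0.02 with centred arrays and 0.03 with only the groups compared, AURKB at 0.11 when probe sets were averaged, and with the ACTB covariate KIF23 was at 0.10, ECT2 at 0.06 and MKI67 at 0.03. Leaving out 1 line or array gave −0.06 to 0.03 for MAD2L1, −0.46 to 0.06 for KIF23, −0.40 to 0.10 for ECT2 and −1.13 to 0.20 for MKI67. Against single clusters MAD2L1 was at 0.02 with centred arrays, and with the ACTB covariate KIF23 was at 0.03 and MKI67 at 0.01. Leaving out 1 line or array gave −0.64 to 0.02 for NEK2, −0.08 to 0.06 for MAD2L1, −0.51 to 0.03 for KIF23, −0.44 to 0.03 for ECT2 and −1.10 to 0.23 for MKI67.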

Other observations

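CDC26 exceeded its control on each of the 9 construct arrays, by 0.11 to 0.50, while CDC27 was lower by more than 0.5 only on those with both clusters (−0.76 and −1.02). On the HUTU-80 array with miR-200c141 titled 1:3, 31 of the 42 members (73.8%) were lower than on that titled 1:5, beside 47.9% of all genes. The difference was not one of the members alone: the shares were 70.1% for the other mitotic genes, 71.4% for the G1 and S phase genes and 82.6% for the transcription regulators.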
